A study of Rattus norvegicus with 10 samples.

Results

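Ucp1, Cox8b and Fabp3 are 3 genes of fat-burning mitochondria and of fatty-acid transport, and their mRNAs were measured in the aortas of rats given lipopolysaccharide (LPS), the bacterial toxin that provokes septic shock, and of control rats. For each gene, 1 of the 28287 mRNA probes of the array could be identified, and all 3 probes were found in every scanner file and in the table of the authors' processed values. They were chosen by their fold change and a p-value in these same arrays, because the study lists them among its 10 leading down-regulated mRNAs, so the difference between the groups is a description here, and no call of a gene by a test of it counts as support. The samples were 5 male Wistar rats, aged 8 weeks, that received LPS at 10 mg/kg into the abdominal cavity (the LPS group), and 5 such rats that received saline (the control group). Aortas were collected 24 h after the injection, and RNA was hybridised to 10 single-colour arrays, which the labels give by group and number. These numbers are read here as rats. The sample labels call the tissue blood vessel and the study's methods call it aorta. Whether the fat around the vessel was removed is not given in the sources used here.

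A brown adipocyte is a fat cell packed with mitochondria that burns lipid to make heat. Its hallmark is Ucp1, a channel-like carrier of the inner mitochondrial membrane through which protons flow back without making ATP. Cox8b encodes a subunit of cytochrome c oxidase, the last complex of the respiratory chain, in the form used by heart, skeletal muscle and brown fat. Fabp3, heart-type fatty-acid-binding protein, carries fatty acids through the cytosol of heart muscle, oxidative skeletal muscle and brown fat. Ucp1 is therefore the only one of the 3 that is largely restricted to thermogenic fat cells. In rodents, the fat that surrounds the thoracic aorta resembles brown fat.

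The sequences just upstream of the 3 genes are shown because the genes were listed together as lowered, and so that these short windows can be compared. Control regions outside the windows were not searched. Each run is the 250 bases before the gene's start in RefSeq (GRCr8), 5′ to 3′ on the strand of the gene, with matches to the searched motifs in capitals. The window of Ucp1 is chr19:41721422-41721671 (minus strand), that of Cox8b is chr1:205408274-205408523 (minus strand) and that of Fabp3 is chr5:147935875-147936124 (plus strand).
Ucp1: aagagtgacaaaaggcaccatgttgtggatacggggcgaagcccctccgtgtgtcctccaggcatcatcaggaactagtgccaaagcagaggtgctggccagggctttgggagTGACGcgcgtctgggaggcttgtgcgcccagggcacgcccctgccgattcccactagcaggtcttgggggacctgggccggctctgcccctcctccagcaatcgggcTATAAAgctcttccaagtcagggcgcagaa
Cox8b: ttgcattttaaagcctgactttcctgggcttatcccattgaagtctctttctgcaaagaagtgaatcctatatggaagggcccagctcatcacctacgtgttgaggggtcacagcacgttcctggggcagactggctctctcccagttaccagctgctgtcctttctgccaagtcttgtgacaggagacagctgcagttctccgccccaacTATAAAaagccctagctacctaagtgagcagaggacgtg
Fabp3: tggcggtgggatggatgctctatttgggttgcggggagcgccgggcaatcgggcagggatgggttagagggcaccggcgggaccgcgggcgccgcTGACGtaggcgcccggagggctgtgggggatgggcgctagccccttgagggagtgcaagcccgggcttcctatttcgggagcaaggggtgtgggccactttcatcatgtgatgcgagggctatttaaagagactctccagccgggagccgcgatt
The motifs were searched on both strands. The letters TATAAA, around which the general transcription machinery assembles at many start sites, lie 30 to 25 bases before the start of Ucp1 and 39 to 34 bases before that of Cox8b, and they are present in 12.9% of the 33469 promoters of the same length. The letters TGACG, the first part of the cAMP response element TGACGTCA, lie 137 to 133 bases before the start of Ucp1 and 155 to 151 bases before that of Fabp3, and 18.2% of promoters hold them. TGACG is contained in TGACGTCA, which is in 1.59% of promoters and in none of these 3 windows. The nuclear receptor half-site AGGTCA (14.1% of promoters), its extended form TNAAGGTCA (1.04%), its direct repeat with 1 spacer (0.0508%) and CCAAT (34.0%) were not found in the 3 windows. The half-site is contained in its extended form and in its repeat. No motif of this list was common to all 3 windows. The GC content was 62.0% for Ucp1, 51.2% for Cox8b and 65.6% for Fabp3, against a median of 51.2% over all promoters.

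Before any comparison, the arrays were compared with each other. The arrays of LPS rats 1 and 3 differed from each other by no more than their spot errors allow, as did those of control rats 15 and 17. The median squared difference of their spots was 0.984 and 0.778 times the one that the spot errors alone give, whereas it was at least 4.01 times in the remaining pairs of the 45. The mean of each near-identical pair therefore stands for a single sample, and n is 4 in both groups. Whether the arrays of such a pair come from different rats cannot be told from the labels. The arrays fell into 3 sets by scan start time, with different array positions inside each set. Each set was taken to be 1 slide and is called slide 1, 2 or 3 here, although only the scan start was used to form it. Control rats 15 to 18 were on slide 1, LPS rats 1, 3 and 5 shared slide 2 with control rat 20, and LPS rats 6 and 7 were on slide 3. Between 30883 and 35940 of 38804 probes were well above background on each array, with no saturated spot. All 3 genes were well above background on all 10 arrays, with 1 spot each, and the scanner software put the error of these spots at 10% of the signal, or 0.144 on the log2 scale. The number of arrays limits the precision of every value. Levels are log2 intensities relative to the 75th percentile of the array, and they are compared within a gene and not between genes.

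Ucp1 was the most sharply separated of the 3 genes. Its level was 4.73, 5.02, 5.33, 6.04 and 6.30 in LPS rats 1, 3, 5, 6 and 7. In the control rats 15, 16, 17, 18 and 20 it was 9.33, 8.63, 9.16, 9.64 and 8.09. Every LPS array was thus below every control array, and the lowest control sample stood 1.79 above the highest LPS sample. Over the averaged samples, the mean was 5.64 ± 0.65 (SD, n = 4) in the LPS group and 8.90 ± 0.68 (SD, n = 4) in the control group. The log2 fold change was -3.27 (standard error 0.41), a 9.62-fold lower signal in the LPS group. Before scaling, the background-corrected intensity ran from 9056 to 29030 units on the LPS arrays and from 75685 to 174622 units on the control arrays, over a local background of at most 20 units.

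Cox8b was lower in the LPS group as well, but the groups overlapped. The level was 2.05, 2.40, 4.41, 2.57 and 4.72 in LPS rats 1, 3, 5, 6 and 7. In control rats 15, 16, 17, 18 and 20 it was 6.40, 4.50, 6.42, 7.01 and 6.50. Control rat 16 stood apart at the low end of its group, below LPS rat 7, so that 15 of the 16 pairs of an LPS and a control sample had the lower value in the LPS sample. The LPS rats fell into a lower set (1, 3 and 6) and a higher set (5 and 7), which lay close to control rat 16. Means were 3.48 ± 1.27 (SD, n = 4) in the LPS group and 6.10 ± 1.11 (SD, n = 4) in the control group, and the log2 fold change was -2.62 (standard error 0.69), a 6.16-fold lower signal.

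Fabp3 had the largest mean difference of the 3 genes and the widest spread. In LPS rats 1, 3, 5, 6 and 7 the level was 0.34, 0.13, 4.30, 1.56 and 0.20. In control rats 15, 16, 17, 18 and 20 it was 4.85, 3.57, 4.91, 5.41 and 7.68. LPS rat 5 was thus within the control range, above control rat 16, and control rat 20 was above all other rats. Its mean was 1.57 ± 1.93 (SD, n = 4) in the LPS group and 5.38 ± 1.71 (SD, n = 4) in the control group. The log2 fold change of -3.81 (standard error 1.04) is a 14.0-fold lower signal in the LPS group. In intensity, the control arrays ranged from 2261 to 82026 units and the LPS arrays from 347 to 4430 units.

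**Figure D1:**
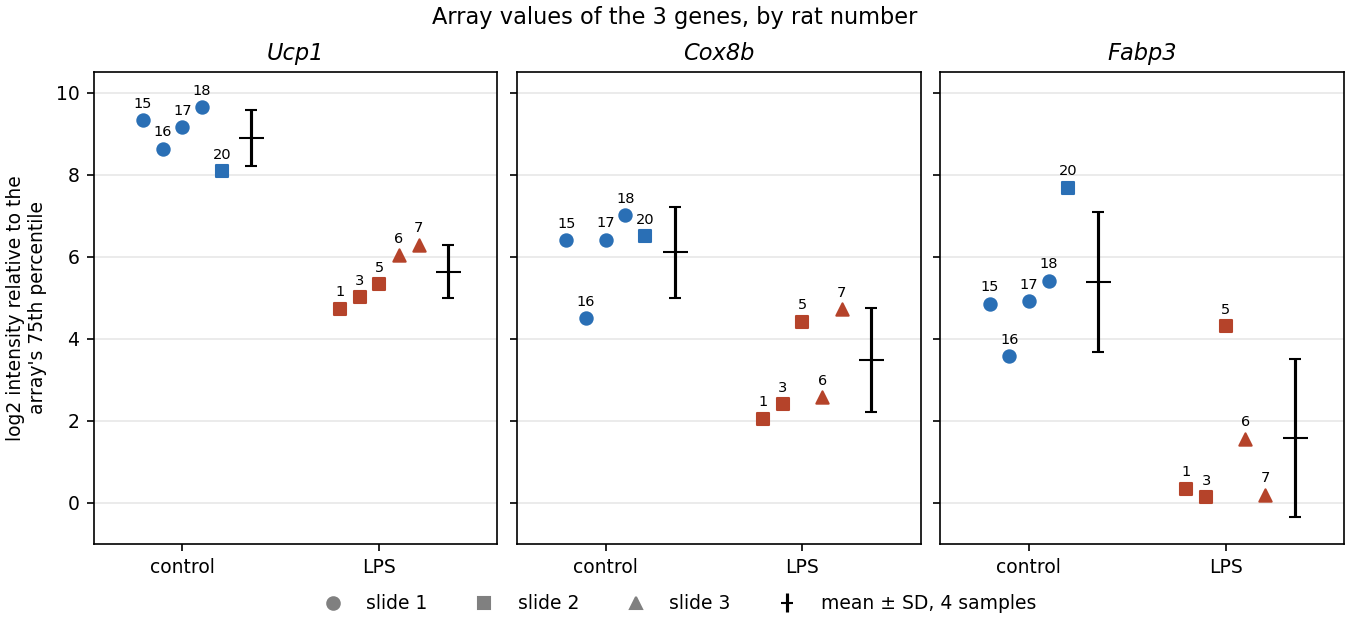
Level of each gene on each array (y axis, log2 units above the 75th percentile of that array), with the rat's number beside each point, the slide as the symbol, and the mean ± SD of the 4 samples of each group as black bars. Ucp1 shows a gap of 1.79 between the groups, whereas LPS rat 7 for Cox8b (4.72) and LPS rat 5 for Fabp3 (4.30) lie above control rat 16 (4.50 and 3.57).

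These data come from whole tissue, in which fewer cells of a type and less RNA per cell cannot be told apart. The differences were set against those of all mRNA probes, over which the log2 fold change had a median of 0.07 and quartiles of -0.19 and 0.32 (26234 probes). Of these, 4 probes had a lower log2 fold change than Fabp3, 7 had a lower one than Ucp1 and 20 had a lower one than Cox8b. A call of lower required both a change of more than 1.5-fold and a p below 0.05 in limma, a linear model that shares the spread across probes. These p-values were adjusted (Benjamini-Hochberg) across every mRNA and lncRNA probe that entered the test. Under this rule, 1 of the 3 genes (Ucp1) was called, and 0.0724% of mRNA probes were called lower (19 of 26234). All LPS samples were below all control samples for 1 of the 3 genes, again Ucp1, and for 1.86% of mRNA probes. With the 10 arrays as separate samples, all 3 genes were called, and 0.358% of mRNA probes were called lower. The 3 genes were selected for this contrast, so these counts carry no information about them. The study also measured its leading mRNAs by quantitative PCR. Cox8b is among the lowered mRNAs that it names as matching the arrays, and Ucp1 and Fabp3 are not.

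**Figure D2:**
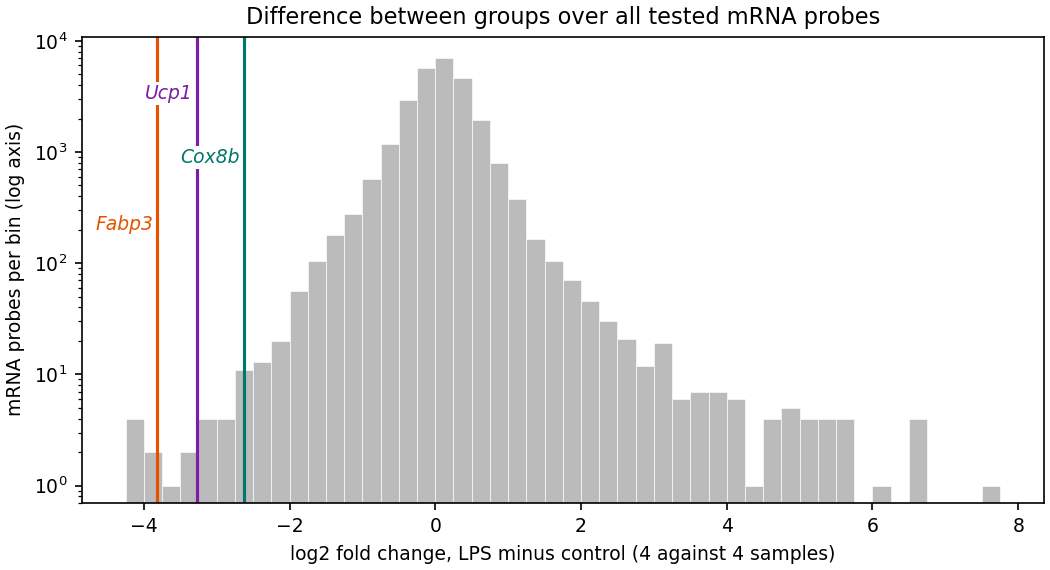
Number of mRNA probes (y axis, log scale) by log2 fold change of LPS minus control (x axis, bins over 26234 probes), with vertical lines at the 3 genes. The lines stand at -3.81 for Fabp3, -3.27 for Ucp1 and -2.62 for Cox8b, in the far left tail of a distribution with a median of 0.07.

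The direction of the difference was the same for all 3 genes under every setting tried. For Ucp1 the log2 fold change lay between -3.54 and -3.01 when each array or averaged pair was left out in turn. That of Cox8b lay between -3.16 (without control rat 16) and -2.20 (without LPS rats 1 and 3). Fabp3 depended more on single rats, with -4.72 without LPS rat 5 and -3.05 without control rat 20. Quantile normalisation gave -3.17 for Ucp1, -2.60 for Cox8b and -3.82 for Fabp3. In the authors' processed log2 values, Ucp1 was between 13.3 and 14.1 on the LPS arrays and between 16.4 and 17.4 on the control arrays. Those of Cox8b met at the edge of the groups, with a highest LPS value of 12.54 and a lowest control value of 12.52, and those of Fabp3 overlapped between 11.6 and 12.4.

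Slide and group were largely confounded. Slide 1 held only control rats, slide 3 held only LPS rats, and slide 2 was the only slide with both groups. On slide 2, control rat 20 had a Ucp1 level of 8.09 and the LPS samples had a mean of 5.10, a difference of -2.99. The corresponding difference was -3.18 for Cox8b and -5.41 for Fabp3. A fit with the slide as a fixed block gave the same values over the 8 samples, with standard errors of 0.48, 1.34 and 1.55. None of the 3 genes was called in that fit, in which 0.0114% of mRNA probes were called lower (3 of 26234). These differences rest on a single control rat and on arrays that were used to choose the genes. Levels also differed between slides inside each group, and not in the same direction for each gene. For Ucp1, the LPS samples had a mean of 5.10 on slide 2 and 6.17 on slide 3, and the controls a mean of 9.17 on slide 1 against 8.09 for the rat on slide 2. The Fabp3 means went the other way, from 2.27 on slide 2 to 0.88 on slide 3 in the LPS samples, and from 4.62 on slide 1 to 7.68 on slide 2 in the controls. Those of Cox8b lay closer together, at 3.32 and 3.65 in the LPS samples and at 5.97 and 6.50 in the controls. The part of the slide in these values was not tested.

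**Figure D3:**
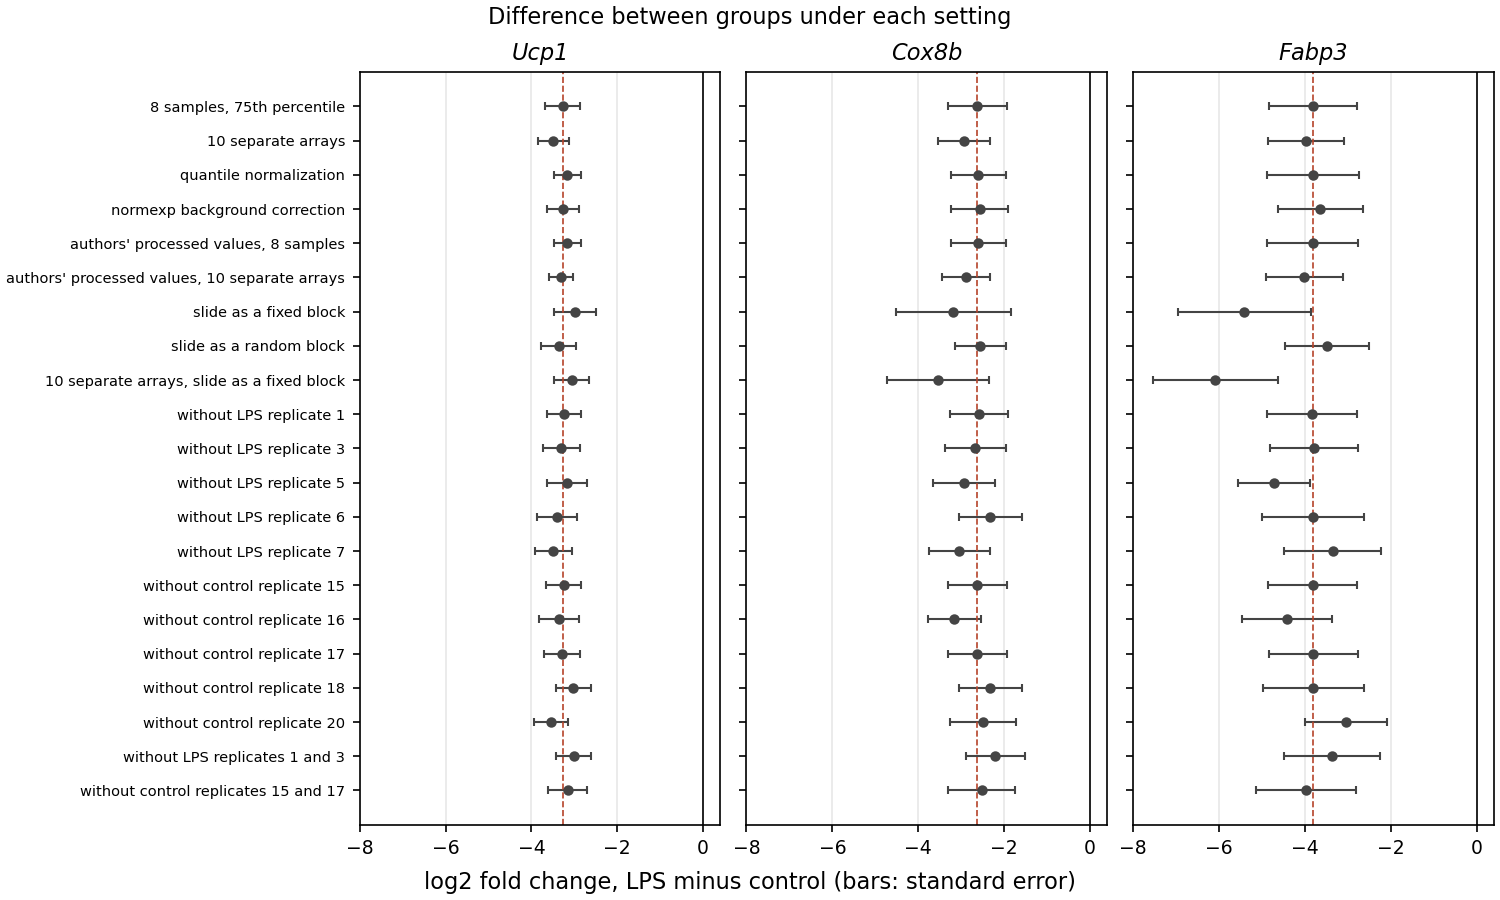
Log2 fold change of LPS minus control (x axis, points, with standard errors as bars) for each gene under each setting (y axis), where the dashed line is the value over 8 samples and the solid line is 0. Every point is below 0, Ucp1 stays within -3.54 and -2.99, and Fabp3 reaches -6.09 with 10 separate arrays and the slide as a block.

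The spread between rats of the same group differed among the 3 genes. It enters the p-value by which the study chose them, so it is given as a description. Most mRNA probes varied little, with a median SD of 0.36 in the LPS group and 0.42 in the control group. The SD of Fabp3 was larger than that of 99.7% of mRNA probes in the LPS group and of 98.5% in the control group. For Cox8b these shares were 98.7% and 93.5%, and for Ucp1 they were 85.5% and 77.5%. The range within a group was 1.42 for Ucp1 in the LPS samples, the smallest among the 3 genes in both groups. Fabp3 spanned 4.11 log2 units within each group. After group means were subtracted, the correlation of the 3 genes with the log2 of the array's 75th percentile was -0.34 for Ucp1, 0.07 for Cox8b and 0.04 for Fabp3 over 8 samples. Its value with the share of probes well above background was 0.04, 0.26 and -0.12. The part of array brightness in the levels was not tested.

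Whether the 3 genes vary together between rats was examined on levels relative to the mean of the rat's own group, which removes the difference between LPS and control. Over 8 samples, Ucp1 and Cox8b had a Pearson r of 0.42 (exact two-sided permutation within groups, p = 0.307, adjusted over the 3 pairs 0.461). Spearman's rho for this pair was 0.33 (exact permutation p = 0.438, adjusted 0.635), and r was 0.45 without the 2 samples farthest from the median of Ucp1. Cox8b and Fabp3 had an r of 0.48 (exact permutation p = 0.30, adjusted 0.461) and a rho of 0.45 (exact permutation p = 0.299, adjusted 0.635). Without the averaged pair of LPS rats 1 and 3 and control rat 16, the samples farthest from the median of Cox8b, that r was 0.02. Ucp1 and Fabp3 had an r of -0.31 (exact permutation p = 0.483, adjusted 0.483) and a rho of -0.21 (exact permutation p = 0.635, adjusted 0.635), and r was -0.32 without the 2 farthest samples. No pair passed the threshold, which with 8 samples does not show that the genes vary independently. As a description, control rat 20 had the highest Fabp3 level of all rats and the lowest Ucp1 level of the control group, and LPS rat 5 had the highest Fabp3 level of its group with a Ucp1 level below its group's mean. Both lay on slide 2, where the Ucp1 level of rat 5 (5.33) was above that of the averaged LPS rats 1 and 3 (4.87). When the means of each slide within each group were subtracted instead, r was 0.91 for Ucp1 and Cox8b (exact permutation p = 0.0417, adjusted 0.125), 0.64 for Ucp1 and Fabp3 (adjusted p = 0.25, exact permutation) and 0.58 for Cox8b and Fabp3 (adjusted p = 0.333, exact permutation). This setting allows 24 permutations, so 0.0417 is the smallest p it can give, and with only 1 pair at that p the adjusted value cannot be below 0.125. Control rat 20, alone in its slide and group, adds nothing to these values.

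**Figure D4:**
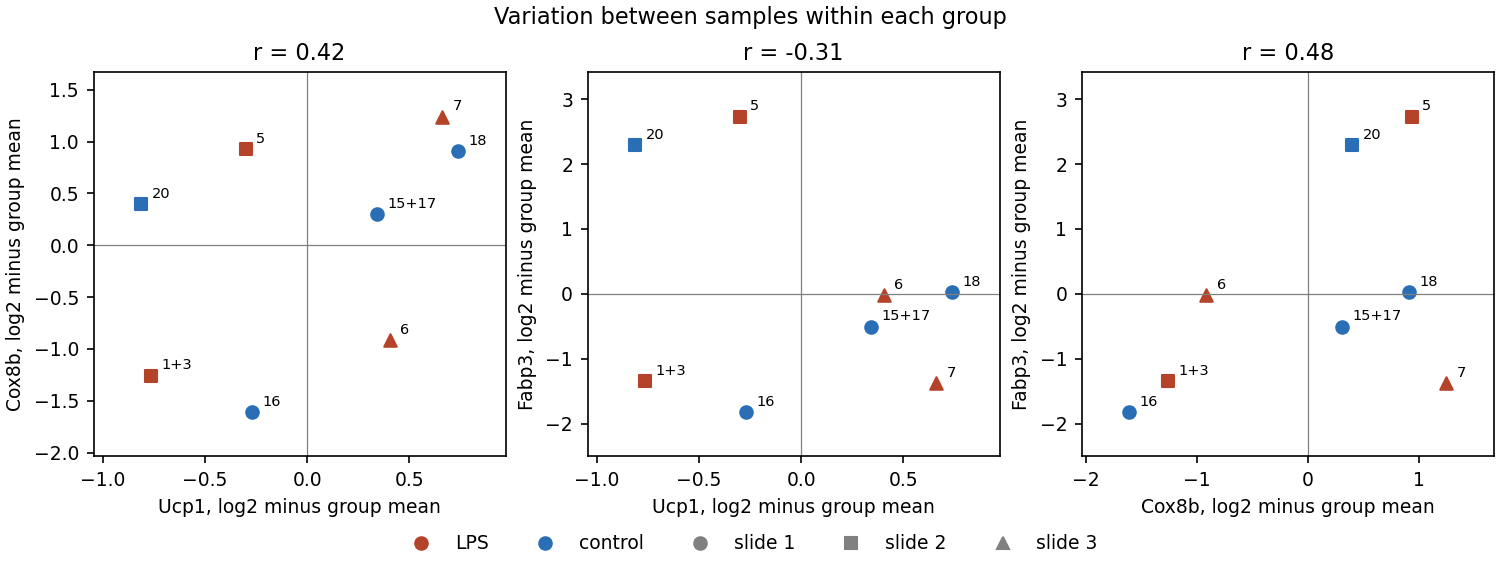
Level of one gene against another after subtraction of the group mean (both axes in log2 units), 1 point per sample, with colour for the group, symbol for the slide and the rat's number beside it. Rats 5 and 20 lie high for Fabp3 and low for Ucp1, and the correlations are 0.42, -0.31 and 0.48.

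The probes that varied most like each gene between rats of a group were then listed, as a description over 8 samples, some of which share a scan. Names were available for the 40 probes of the study's lists of leading lncRNAs and mRNAs, which leaves 37 besides the 3 genes, and a named probe here is one of these. Another 50 probes carry accession numbers, of which 30 matched a RefSeq symbol, and they did not enter this comparison. Cox8b was most like Mtfp1, a protein of mitochondrial fission, with an r of 0.92, which only 74 of the 33695 other tested probes exceeded. Next came Adssl1, the muscle enzyme of the purine nucleotide cycle, with an r of 0.90 (180 probes were higher), and the lncRNA XR_344417 with 0.88. For Fabp3 the most like was also Adssl1, with an r of 0.76 (774 probes were higher), followed by the lncRNAs XR_355499 with 0.75 and XR_589510 with 0.65. The study lists XR_355499 as raised after LPS, unlike Fabp3, and XR_589510 as lowered. For Ucp1 the most like were the lncRNA XR_086340 with an r of 0.86 (200 probes were higher), the scaffold gene Shank2 with 0.76 and the lncRNA ENSRNOT00000083801 with 0.70. Its r with Adssl1 was 0.08. From the side of Ucp1, 5359 probes were more like it than Cox8b was, and 26349 were more like it than Fabp3 was. These values changed with the slide. With slide-by-group means subtracted instead, a setting chosen after seeing the data, the r of Ucp1 was 0.92 with Adssl1 and 0.98 with Mtfp1, its most like named probe in that setting. Cox8b then had an r of 0.97 with Adssl1 and 0.93 with Mtfp1. Fabp3 had an r of 0.72 with Adssl1. Its most like named probe was the lncRNA XR_594785 with 0.86, which the study also lists as raised after LPS. The r of Fabp3 fell to 0.48 with XR_355499 and to 0.36 with XR_589510. The low r of Ucp1 with Adssl1 was therefore not seen within slides. High values were also more frequent there, since 4.58% of mRNA probes had an r of at least 0.9 with Ucp1, 2.51% with Cox8b and 0.862% with Fabp3. With group means subtracted, probes outside these lists came first for each gene, such as ASRN6AP1B100008345V3 for Ucp1 with 0.98 and ASRN6AP1B100008175V3 for Fabp3 with 0.98. In that setting, 0.309% of mRNA probes had such an r with Ucp1, 0.557% with Cox8b and 0.278% with Fabp3.

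**Figure D5:**
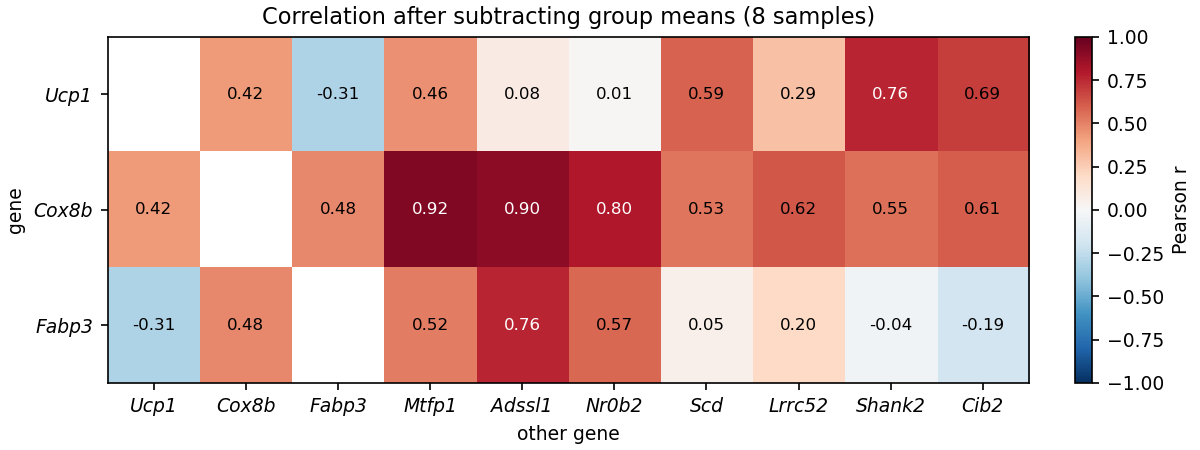
Pearson r of each of the 3 genes (rows) with the other down-regulated mRNAs of the study's list (columns), after subtraction of group means over 8 samples, with blank cells where a gene meets itself. Cox8b is most alike to Mtfp1 (0.92) and Adssl1 (0.90), Fabp3 to Adssl1 (0.76) and Ucp1 to Shank2 (0.76).

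The other lipid and energy metabolism genes of the list are given for comparison, with the same caution that the study chose them on these arrays. Scd, the desaturase that makes monounsaturated fatty acids in fat and liver, ranged from -2.10 to -0.82 in the LPS samples and from 0.49 to 5.89 in the control samples, where its highest value was that of rat 18. For Nr0b2, a nuclear receptor that represses transcription, the difference was -3.80 on the log2 scale (standard error 0.60). Adssl1 ranged from -0.41 to 3.12 in the LPS samples and from 2.98 to 6.21 in the control samples. The highest LPS value of Adssl1 was in rat 5, as were those of Fabp3, Scd, Nr0b2 and Mtfp1. Those of Ucp1 and Cox8b were in rat 7. The log2 fold change of Mtfp1 was -2.50 (standard error 0.53), next to -2.62 for Cox8b.

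The name brown-fat genes could not be checked against other markers of brown fat. Of 14 brown adipocyte markers, just these 3 could be matched to a probe. A general adipocyte list of 12 genes had Scd only, a striated muscle list of 14 genes had Adssl1 only, and 7 smooth muscle and 5 endothelial markers had no named probe. Among related genes, Ucp1 alone of 11 thermogenesis genes, Cox8b alone of 14 cytochrome c oxidase subunits, Fabp3 alone of 7 genes of fatty-acid binding and uptake and 0 of 9 fatty-acid oxidation genes had a named probe. Adssl1, the 1 named striated muscle marker, was lower in the LPS group (log2 fold change -4.03, standard error 0.91), as the 3 genes were. Of 8 neutrophil and macrophage markers, S100a8 and S100a9 had named probes and were higher in the LPS group, with log2 fold changes of 5.43 (standard error 0.57) and 4.63 (standard error 0.50). Adssl1, Scd, S100a8 and S100a9 have names here only because the study listed them as leading changed mRNAs on these arrays. Their directions were thus fixed by that choice and say nothing about cell types. The part of the cell make-up of the tissue pieces in the levels of Ucp1, Cox8b and Fabp3 was not tested.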

How the data were processed

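Aortic RNA of 5 LPS and 5 control rats was measured on Agilent single-colour arrays. The authors deposited scanner files with an intensity per spot, made by Agilent Feature Extraction (version 11.0.1.1 in the file headers), which corrects each spot for background and does not normalise between arrays. The flags of these files mark outlier, saturated and well above background spots. The authors also deposited a table of processed log2 values, whose arrays all have a median of 5.84 (they differ by at most 0.000181) and whose normalisation is not given in the sources used here. It was used as an alternative.

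The log2 intensity minus the 75th percentile of the array was taken without outlier spots (92 to 164 per array), and replicate spots were combined as a mean. The filter kept probes that the scanner flagged as well above background on 5 or more of the 10 arrays, which were tested with limma 3.58.1 in R 4.3.3 (26240 mRNA and 7462 lncRNA probes passed, and those without a value in every sample were left out). Calls required a change of more than 1.5-fold and a Benjamini-Hochberg adjusted p below 0.05. The methods' t-test was an alternative. In simulated data for LPS against control over 33696 probes, limma called 156 of 200 changed and 10 unchanged probes. Correlations were computed after subtraction of group means, with all 576 permutations of samples within groups (Python 3.11.15). Rat numbers are not shared between groups. The labels give a group and a number, read here as the number of a rat. The methods give 5 rats per group. For the near-identical pairs the arrays do not show separate animals, and p-values measure only the spread between these samples.

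Gene names came from the study's supplementary lists. Named genes are the 3 genes, Scd, Nr0b2, Adssl1 and Mtfp1, the 3 named probes most like each gene, and matched markers. The members, lists and tests were chosen with earlier results of these data known. For normexp (offset 50) the median spot signal was used, as no mean spot signal was used here. Quantile normalisation, 10 separate arrays, other probe filters, the slide as a fixed or random block and leaving out each sample were further alternatives. Promoters were RefSeq sequences on GRCr8. The array files name an older build, and no coordinates were taken from it.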

Additional observations from a re-analysis of the deposited data

How the results depend on the processing

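No paired analysis was possible because the groups share no replicate numbers. The log2 fold changes of Ucp1, Cox8b and Fabp3 kept their sign in all alternatives, and only that of Fabp3 moved beyond the spread between samples, to -6.09 with 10 separate arrays and the slide as a fixed block. With single arrays or averaged pairs left out they lay between -3.54 and -3.01 for Ucp1, -3.16 and -2.20 for Cox8b, and -4.72 and -3.05 for Fabp3. Their calls are not counted over settings, since the genes were chosen on this contrast.

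The mRNA probes called lower and higher, 19 and 182 over 8 samples, were 94 and 461 with 10 separate arrays, 202 and 562 with the authors' values of 10 arrays, 485 and 1235 with the methods' t-test without adjustment and 1 and 40 after it, 3 and 3 with the slide as a fixed block, 40 and 358 with it as a random block, and 70 and 49 with 10 arrays and the fixed block. They ranged from 4 to 25 and from 87 to 251 with arrays left out. Both lowest counts came without LPS rat 7. Of the within-group correlations, Ucp1 with Fabp3 changed sign, to 0.64 when slide-by-group means were subtracted and to 0.0504 without control rat 20 (from -0.62 to 0.05 with arrays left out). With arrays left out, the others ranged from 0.21 to 0.64 for Ucp1 with Cox8b and from 0.26 to 0.80 for Cox8b with Fabp3, and with slide-by-group means subtracted they were 0.91 and 0.58. With slide-by-group means subtracted, an alternative chosen after seeing the data, the likeness of Ucp1 to Adssl1 moved from 0.08 to 0.92 and to Mtfp1 from 0.46 to 0.98. The likeness of Fabp3 to XR_355499 fell from 0.75 to 0.48 and to XR_589510 from 0.65 to 0.36. The cause of these changes was not tested. All 3 genes were well above background on every array. With the slide as a fixed block, the standard error rose from 0.69 to 1.34 for Cox8b and from 1.04 to 1.55 for Fabp3.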
